A study of Mus musculus with 384 samples.

Results

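Messenger RNA of the complement and coagulation systems was followed in the livers of 192 Diversity Outbred mice, an outbred stock bred from several inbred founder strains. The members were 41 genes for complement components, clotting factors and their regulators, chosen by name and matched to the deposited table through their Ensembl IDs. Values were present for 40 of the 41, among 21454 genes in all: 21 complement genes and 19 coagulation genes. Klkb1, the gene of plasma prekallikrein, is not analysed here.

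All mice were wild type by label, were 26 weeks old and had eaten 1 of 2 diets since weaning, a high fat diet with 22% fat by weight or a standard chow with 6%. There were 46 male mice on high fat, 48 male mice on chow, 48 female mice on high fat and 50 female mice on chow. Each mouse was a separate animal and genetically unlike the others, so the spread within a group holds genetic as well as other differences between mice. Each value is a signal scaled to the upper quartile of its mouse, with no unit of its own, and changes are given in log2 with the standard error (SE).

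Complement is a cascade of plasma proteins that marks and lyses microbes. Mannan-binding lectins and C1 start it, C3 convertases amplify it, and C5 to C9 assemble the pore called the membrane attack complex. Coagulation is a second cascade of plasma proteases that ends in thrombin, which turns fibrinogen into fibrin, and plasmin later dissolves the clot. Hepatocytes make most of the circulating proteins of both systems, and several of them belong to the acute phase proteins whose synthesis changes during inflammation.

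Hepatocyte markers were abundant in every group: the summed signal of the 4 measured of 5 listed markers ran from 8058 to 34200 in high fat males, from 11208 to 31184 in chow males, from 13119 to 60047 in high fat females and from 13472 to 36223 in chow females. Estimated depth was 9.78 to 17.9 M reads per mouse, with group medians of 13.8 M in high fat males, 14.6 M in chow males, 13.9 M in high fat females and 14.3 M in chow females. Some libraries stood apart. There were 11 mice with transcripts of pancreas acinar cells, 10 mice with the lowest median correlation to the others (0.925 to 0.936, against 0.945 for the median mouse) and 1 mouse labelled female whose Xist signal was below 1. Upper-quartile scaling need not remove a shift shared by most genes, so a second scaling to the median of ratios is given where it matters. That second scaling moved the median log2 change of all 14602 tested genes from 0.071 to -0.009 for sex, from -0.067 to 0.005 for diet and from -0.097 to 0.005 for diet within males.

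Per kilobase of exon, C3, the central component of all complement pathways, had the highest median signal over the 192 mice, at 383. The fibrinogen chains followed at 290.4 for Fgg, 282 for Fga and 202 for Fgb. Next came Vtn (194), which encodes vitronectin, a protein that binds the terminal complex, then Plg (171), which encodes plasminogen, and Kng1 (138), which encodes high molecular weight kininogen. At the low end were Cfp (2.89), the gene of properdin, Pros1 (2.74), the gene of protein S, and Masp1 (2.11), the gene of a lectin pathway protease. No member was listed at 0 in any mouse. These are medians over mice on a scale per length. Reads that fit more than 1 gene limit some single values: of the 31-base words of its exons, Cfb shared 75.5% with another gene, C1ra 59.6%, Masp2 53.3%, C4b 48.3%, C1s1 47.6%, C2 44.4%, Serpinc1 35.6%, Kng1 26.5% and Plg 10.6%. For C4b, C1ra, C1s1 and Kng1 the single gene that shared most was the near copy C4a (48.3%), C1rb (56.9%), C1s2 (33.5%) or Kng2 (26.5%). How such reads were assigned is not given in the sources used here, so values of these genes are uncertain.

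The first comparison asked how the members differed between male and female livers, averaged over the diets. C6, C8a, C8b and C9 of the membrane attack complex had far higher signals in males, while coagulation genes differed little. By limma with adjustment over all tested genes, 14 of 21 complement genes were higher in males, where 45.0% of all tested genes were, and 3 were lower, against 23.5% of all tested genes. Of 19 coagulation genes, 9 were higher in males and 4 were lower. The median log2 change was 0.24 for complement, 0.067 for coagulation and 0.071 for all tested genes. After median-of-ratios rescaling the counts were 13 higher and 4 lower for complement, and 6 and 6 for coagulation, with 4440 higher and 4898 lower over all tested genes, where the deposited scaling gave 6573 and 3425. After quantile normalization they were 3 higher and 11 lower for coagulation, with 4982 higher and 4361 lower over all tested genes. The balance of the coagulation genes thus turned with the scaling.

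Terminal components carried the largest differences. C6 (ENSMUSG00000022181, GRCm38 chromosome 15, 4727175 to 4814967), which joins the complex after C5b, had a signal of 17.0 to 691 in high fat males (median 81.9), 13.3 to 339 in chow males (median 109), 2.09 to 22.0 in high fat females (median 5.93) and 2.40 to 33.0 in chow females (median 6.06). Of 94 males, 88 lay above the highest female. The fitted difference was 3.66 ± 0.143, or 12.7-fold (adjusted p = 5.29e-61).

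C8a (ENSMUSG00000035031, chromosome 4, 104815679 to 104876398) and C8b (ENSMUSG00000029656, chromosome 4, 104766317 to 104804548) encode the alpha and beta chains of C8, the component that first enters the membrane. C8a ran from 64.0 to 412.96 in high fat males (median 201), 168 to 379.6 in chow males (median 253), 9.43 to 132 in high fat females (median 27.5) and 9.84 to 97.8 in chow females (median 39.4). Males exceeded the highest female in 83 of 94 cases, and the difference was 2.74 ± 0.0936, or 6.68-fold (adjusted p = 1.23e-69). C8b ran from 6.44 to 187 in high fat males (median 56.6), 35.8 to 240.3 in chow males (median 97.6), 1.12 to 34.2 in high fat females (median 7.03) and 1.71 to 60.9 in chow females (median 13.7). Here 64 of 94 males exceeded the highest female, and the difference was 2.88 ± 0.141, or 7.34-fold (adjusted p = 2.1e-47).

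C9 (ENSMUSG00000022149, chromosome 15, 6445327 to 6498751), whose polymer forms the wall of the pore, ran from 30.2 to 622 in high fat males (median 138), 60.0 to 273 in chow males (median 167), 2.38 to 130.2 in high fat females (median 20.1) and 5.15 to 74.3 in chow females (median 23.9). It was 7.19-fold higher in males (2.85 ± 0.127, adjusted p = 5.39e-53), with 62 of 94 males above the highest female. For these 4 genes together, 54 of 94 males exceeded every female in all 4, and 5 males exceeded every female in none. The remaining terminal components behaved differently in size. Hc, the mouse gene of C5 (ENSMUSG00000026874, chromosome 2, 34983331 to 35061438), had medians of 211 and 245 in high fat and chow males, against 136 and 181 in high fat and chow females, a difference of 0.60 ± 0.0924. C8g (ENSMUSG00000015083, chromosome 2, 25498651 to 25501719) encodes the gamma chain of C8, a lipocalin. Its medians were 75.6 and 77.4 in high fat and chow males, against 65.7 and 73.6 in high fat and chow females, and no male lay above the highest female. The C8g difference of 0.11 ± 0.0406 (adjusted p = 0.0109) was 0.02 and no longer past the test after median-of-ratios rescaling. The female mouse lacking Xist had 27.2 for C6, 46.7 for C8a, 20.8 for C8b and 25.9 for C9, within the range of the other females for all 4. Its C6 and C8b values also lay within the range of males, whose lowest were 13.3 and 6.44. Its C8a and C9 values lay below the lowest male, at 64.0 and 30.2.

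**Figure D1:**
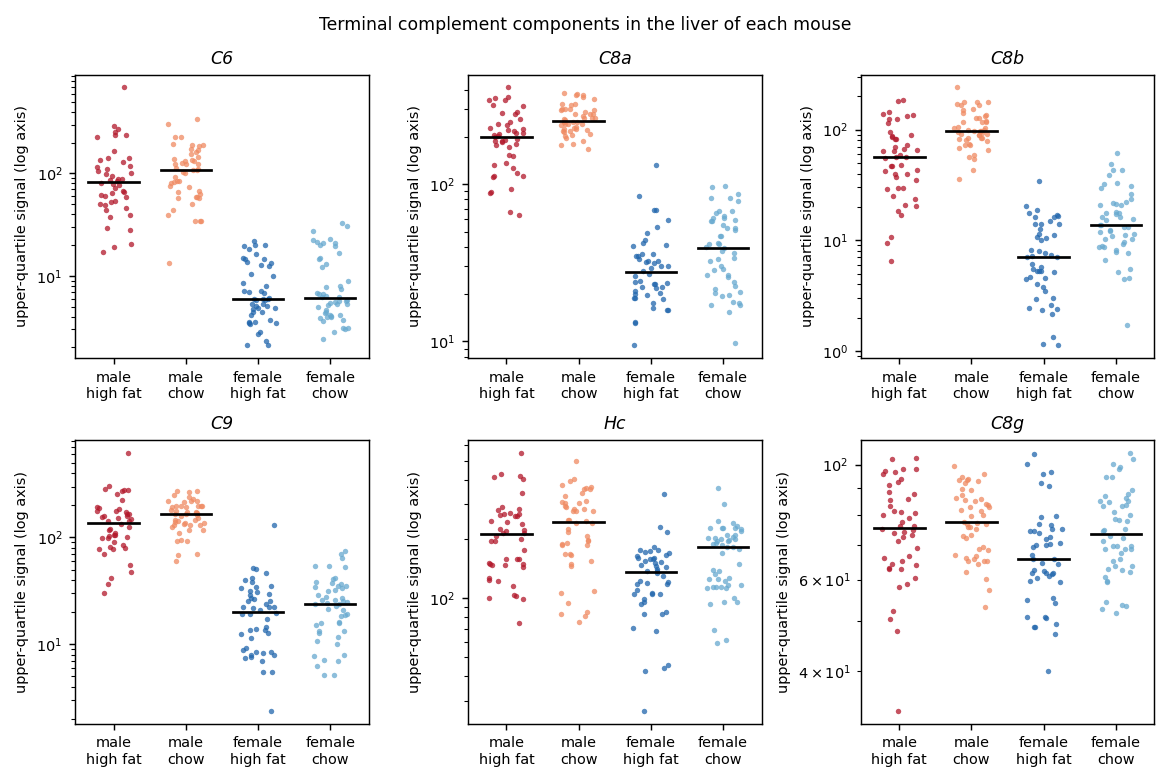
Upper-quartile signal (log axis) of 6 terminal complement genes in each of 192 mice, by sex and diet. Each point is a mouse and each bar a group median. For C6, C8a, C8b and C9 most males lie above the highest female, while the groups overlap for Hc and C8g.

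Promoters are shown for the 4 terminal genes because they differed most between the sexes, and further on for the fibrinogen chains because these moved together. Sequences are RefSeq's on GRCm38.p6, from 250 bases before to 50 after the annotated start, read 5′ to 3′ on the strand of the gene; 32 of the members had an entry. Capitals mark matches on either strand to 3 letter patterns: TTCNNNGAA, the core of STAT sites, CTGGGAA, the interleukin-6 response element of acute phase genes, and TTNNGCAA, part of C/EBP sites. Of 32851 promoters of the same length, 8.30% held the first, 11.1% the second and 10.8% the third. The C6 promoter held 1 CTGGGAA match, C9 held 1 C/EBP match, C8a held 1 STAT match and C8b held none of the 3.
C6, chr15:4726960-4727259, plus strand: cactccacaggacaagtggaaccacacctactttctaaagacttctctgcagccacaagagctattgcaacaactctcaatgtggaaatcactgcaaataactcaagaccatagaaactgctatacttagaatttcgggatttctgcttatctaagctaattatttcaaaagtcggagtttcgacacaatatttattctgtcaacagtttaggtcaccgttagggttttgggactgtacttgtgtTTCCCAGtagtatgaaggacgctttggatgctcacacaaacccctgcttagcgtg
C9, chr15:6445096-6445395, plus strand: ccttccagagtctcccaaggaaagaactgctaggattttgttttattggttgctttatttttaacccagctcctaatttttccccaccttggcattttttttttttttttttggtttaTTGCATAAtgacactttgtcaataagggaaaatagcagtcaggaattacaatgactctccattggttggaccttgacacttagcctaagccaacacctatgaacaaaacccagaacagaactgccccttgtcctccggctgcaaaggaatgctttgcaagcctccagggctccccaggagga
C8a, chr4:104876349-104876648, minus strand: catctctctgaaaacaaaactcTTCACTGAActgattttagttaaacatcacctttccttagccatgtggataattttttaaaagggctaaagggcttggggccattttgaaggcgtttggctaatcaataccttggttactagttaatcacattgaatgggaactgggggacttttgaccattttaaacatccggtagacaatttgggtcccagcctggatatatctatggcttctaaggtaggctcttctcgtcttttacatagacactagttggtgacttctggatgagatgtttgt
C8b, chr4:104766067-104766366, plus strand: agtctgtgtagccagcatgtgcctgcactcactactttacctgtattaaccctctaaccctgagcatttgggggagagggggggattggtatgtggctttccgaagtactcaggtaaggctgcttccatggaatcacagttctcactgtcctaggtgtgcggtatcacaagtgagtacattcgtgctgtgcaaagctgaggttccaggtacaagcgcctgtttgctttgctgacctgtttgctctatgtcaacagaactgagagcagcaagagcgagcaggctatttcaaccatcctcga
A match is a run of letters only and was not tested as a binding site.

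Upstream in the complement cascade, 4 of the 6 recognition genes and initiating proteases were higher in males, 1 was lower and 1 did not pass the test. Of all tested genes, 45.0% were higher and 23.5% lower, so counts in lists this small say little. The paired serine proteases of C1 rose to medians of 84.3 and 88.1 for C1ra in high fat and chow males, against 56.7 and 61.2 in high fat and chow females. C1s1 stood at 135 and 141 in high fat and chow males, against 95.9 and 95.2 in high fat and chow females (0.47 ± 0.032, adjusted p = 2.22e-31). The mannan-binding lectin genes went opposite ways. Mbl1 was higher in males (0.49 ± 0.0387), with medians of 35.8 and 45.1 in high fat and chow males, against 26.2 and 32.2 in high fat and chow females. Mbl2 was 1.44-fold lower in males (-0.52 ± 0.0499, adjusted p = 2.01e-19), with medians of 65.7 and 68.3 in high fat and chow males, against 95.6 and 116 in high fat and chow females.

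Among the 5 convertase genes only C2 was higher in males (0.24 ± 0.0485), and C3 and Cfp were lower, where 45.0% and 23.5% of all tested genes were. C3 ran from 993 to 2565 in high fat males (median 1656), 1572 to 3977 in chow males (median 2104), 971 to 3313 in high fat females (median 1685) and 1627 to 5903 in chow females (median 2673). Its difference of -0.22 ± 0.0472 (adjusted p = 1.07e-05) came with ranges that overlapped widely. Cfp, the gene of properdin, which stabilizes the alternative convertase and is known from myeloid cells, had medians of 3.79 and 3.44 in high fat and chow males, against 7.31 and 6.66 in high fat and chow females. It was 1.89-fold lower in males (-0.92 ± 0.078, adjusted p = 3.76e-23).

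The listed Kupffer cell and macrophage markers moved with Cfp. All 8 Kupffer cell and macrophage markers were lower in males, with a median log2 change of -0.62. Their summed signal ran from 32.4 to 186 in high fat males (median 73.8), 27.9 to 105 in chow males (median 60.1), 32.9 to 189.8 in high fat females (median 101) and 45.1 to 314 in chow females (median 95.2), and no marker of the list had a median of 0. The 4 lymphocyte markers were lower in males as well, with summed medians of 0.338, 0.318, 0.642 and 0.632 in the same 4 groups. Markers of lipid-associated macrophages did not move with Cfp: of 4, 1 was higher in males (Spp1, 0.54) and none lower. Of 4 tested neutrophil markers, 2 were lower in males and none higher. The part of macrophage RNA in the Cfp difference was not tested, and in bulk liver fewer cells of a type and less RNA per cell cannot be told apart. Of the regulators, 3 of 4 were higher in males, where 45.0% of all tested genes were. C4bp, the gene of a cofactor that dismantles C3 convertases, had medians of 151 and 150.2 in high fat and chow males, against 87.0 and 96.6 in high fat and chow females (0.68 ± 0.0367, adjusted p = 1.48e-42). Serping1, the gene of the C1 inhibitor, and Vtn changed by 0.26 and 0.24, and Vtn turned to -0.01 after quantile normalization.

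In the coagulation system the differences were of a smaller size. The fibrinogen chains were each 1.25-fold to 1.28-fold higher in males, with Fgg at 0.36 ± 0.0555 (adjusted p = 3.94e-09), Fga at 0.33 ± 0.0569 (adjusted p = 7.58e-08) and Fgb at 0.32 ± 0.0559 (adjusted p = 9.57e-08), but quantile normalization turned all 3, to -0.05, -0.16 and -0.16. Fga had medians of 841 and 1071 in high fat and chow males, against 713 and 833 in high fat and chow females. F11, the gene of factor XI of the contact pathway, had medians of 22.8 and 26.8 in high fat and chow males, against 14.7 and 22.1 in high fat and chow females (0.37 ± 0.0606, adjusted p = 2.15e-08).

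Of the 7 vitamin K-dependent genes, 3 were higher in males, 2 were lower and 2 did not pass the test, shares near the 45.0% and 23.5% of all tested genes, and after median-of-ratios rescaling 2 were higher and 3 lower. Factor VII, the protease that starts coagulation with tissue factor, is encoded by F7, which had medians of 19.1 and 25.3 in high fat and chow males, against 23.8 and 32.7 in high fat and chow females. F7 was 1.32-fold lower in males (-0.40 ± 0.0546, adjusted p = 4.37e-11). Proc, the gene of the anticoagulant protein C, and F9, the gene of factor IX, were higher by 0.16 ± 0.0311 (adjusted p = 3.51e-06) and 0.17 ± 0.0365 (adjusted p = 2.01e-05), and Pros1 by 0.18 ± 0.0449. After median-of-ratios rescaling Proc and F9 were at 0.07 and 0.08, still past the test, and Pros1 at 0.09 was not (adjusted p = 0.0896). F2, the gene of prothrombin, and Serpinc1, the gene of its inhibitor antithrombin, were lower by amounts close to each other, at -0.09 ± 0.0263 (adjusted p = 0.000876) and -0.11 ± 0.0306 (adjusted p = 0.000894). Kng1 was at -0.09 ± 0.0384 (adjusted p = 0.0333), and without the 10 least alike mice at -0.07, not past the test (adjusted p = 0.0754). After median-of-ratios rescaling F2, Serpinc1 and Kng1 were at -0.18, -0.20 and -0.18, all past the test. With the deposited scaling the difference was not past the test for F10, Proz, F12, F13b, Plg and Serpinf2, with log2 values between -0.06 and 0.07. Nor was it for Masp2, C4b, Cfb and Cfi. After median-of-ratios rescaling F10 (-0.15), F13b (-0.11) and Cfb (-0.10) passed as lower in males. After quantile normalization Plg and Serpinf2 passed as lower in males. Of the 5 convertase genes, C4b and Cfb among them, 4 were then lower in males and 1 was higher, all past the test. F5 and Serpind1 passed as higher in males at 0.10 and 0.07 on the deposited scale. Rescaled to the median of ratios, they stood at 0.01 and -0.02, not past the test. Quantile normalization gave -0.04 for F5 and -0.06 for Serpind1, and Serpind1 then passed as lower in males.

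**Figure D2:**
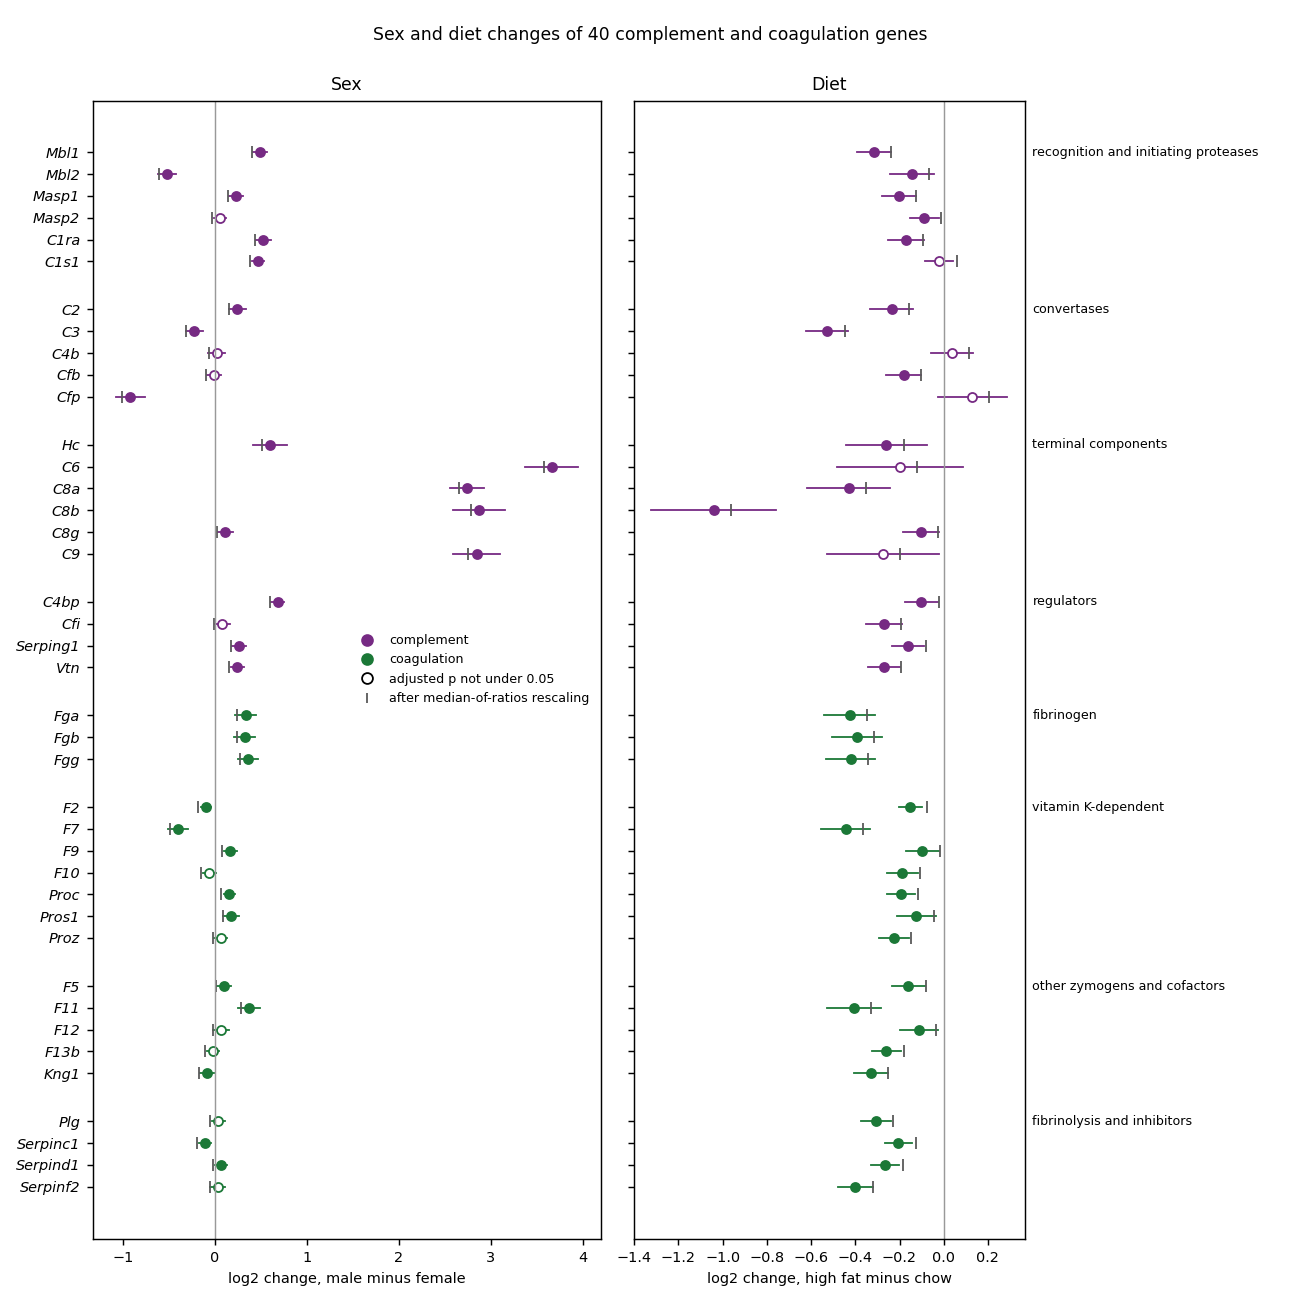
Log2 changes of 40 genes for sex (male minus female) and diet (high fat minus chow), in order of role from recognition to fibrinolysis. Points are limma estimates with lines of 2 SE to each side, filled where the adjusted p was under 0.05, and grey ticks give the value after median-of-ratios rescaling. C6, C8a, C8b and C9 stand apart for sex, and nearly all genes lie below 0 for diet with the deposited scaling.

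The second comparison asked how the members differed between high fat and chow livers, averaged over the sexes. Most genes of both systems fell on the high fat diet, with C8b the most, followed by C3 and F7. All 19 coagulation genes and 16 of 21 complement genes were lower, where 41.9% of all tested genes were, and no member was higher, where 15.0% of all tested genes were. The median log2 change was -0.26 for coagulation, -0.20 for complement and -0.07 for all tested genes. After median-of-ratios rescaling 16 coagulation and 11 complement genes were lower and 2 complement genes higher, with 3634 higher and 3338 lower over all tested genes, where the deposited scaling gave 2185 and 6125. After quantile normalization 11 coagulation and 8 complement genes were lower and 3 complement genes higher. Over all tested genes 3057 were then higher and 3679 lower. With that scaling 9 called members turned in sign without passing the test (C4bp, C8g, Cfb, F12, F2, F5, F9, Masp2 and Serping1). Of the 4 tested hepatocyte markers, 2 were lower on high fat, Alb at -0.27 and Serpina1a at -0.48; the part of hepatocyte RNA in the diet changes was not tested.

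C8b was 2.06-fold lower on high fat (-1.04 ± 0.141, adjusted p = 1.02e-10), with the medians of 56.6 in high fat males against 97.6 in chow males, and 7.03 in high fat females against 13.7 in chow females. C3 fell 1.44-fold (-0.53 ± 0.0473, adjusted p = 4.4e-20), with medians of 1656 in high fat males against 2104 in chow males, and 1685 in high fat females against 2673 in chow females. C8a was at -0.43 ± 0.0936. The change was not past the test for C6 (-0.20, interval of 2 SE from -0.48 to 0.09) or C9 (-0.27, from -0.53 to -0.02, adjusted p = 0.0549). Other complement genes that fell were Mbl1 (-0.32 ± 0.0387), Vtn (-0.27 ± 0.0364), Cfi (-0.27 ± 0.0402), the gene of a protease that inactivates C3b and C4b, and Masp1 (-0.20 ± 0.0378), with adjusted p from 1.35e-12 to 1.37e-06.

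C4b and Cfp did not fall. C4b, a gene of C4, ran from 169 to 626 in high fat males (median 377), 203 to 646 in chow males (median 373), 258 to 681 in high fat females (median 374) and 261 to 527 in chow females (median 369). Its change was 0.04 ± 0.0471 and that of Cfp 0.13 ± 0.078, neither past the test, and both passed after median-of-ratios rescaling, at 0.12 and 0.21. C1s1 was at -0.02 ± 0.032 and turned to 0.12, past the test, after quantile normalization. Of the macrophage markers beside Cfp, 3 of 8 were higher on high fat and none lower, and 3 of 4 markers of lipid-associated macrophages were higher, with summed medians of 17.1 in high fat males against 9.28 in chow males, and 12.1 in high fat females against 7.79 in chow females. Their part in the Cfp and C4b values was not tested.

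Among coagulation genes, Serpinf2 had the smallest p for diet. Serpinf2, the gene of the plasmin inhibitor alpha-2-antiplasmin, had medians of 186 in high fat males against 228 in chow males, and 169 in high fat females against 235 in chow females (-0.40 ± 0.0401, adjusted p = 4.67e-17). Plg fell to medians of 591 in high fat males, against 668 in chow males, and to 535 in high fat females, against 672 in chow females (-0.31 ± 0.0347, adjusted p = 3.46e-14). Both the protease precursor and its inhibitor were thus lower. Kng1 (-0.33 ± 0.0385, adjusted p = 1.39e-13), Serpind1 (-0.26 ± 0.0319, adjusted p = 6.54e-13), the gene of heparin cofactor II, F7 (-0.44 ± 0.0547, adjusted p = 1.69e-12) and F13b (-0.26 ± 0.0325, adjusted p = 3.85e-12), the gene of the carrier subunit of factor XIII, followed. These 6 genes kept their direction and call under each of the 15 alternatives run.

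Within males 16 coagulation and 11 complement genes fell, where 39.8% of all tested genes did, and in females 18 and 15 fell, where 23.3% of all tested genes did. After median-of-ratios rescaling 10 and 5 fell in males, where 2453 of all 14602 tested genes did. In females 16 and 12 fell with that scaling, where 2142 of all tested genes did. After quantile normalization 6 and 3 fell in males and 1 and 3 rose, with 2721 lower and 2185 higher over all tested genes. In females it gave 8 and 7 that fell and 2 complement genes that rose, with 2246 lower and 2106 higher over all tested genes. The fibrinogen chains changed by -0.57 (Fga), -0.52 (Fgb) and -0.55 (Fgg) in males, and by -0.28, -0.27 and -0.30 in females. C3 changed by -0.40 in males and by -0.66 in females. The test of the difference between these diet effects, the interaction of sex and diet, called 0 of 40 members, where 8.38% of all tested genes were called. The members nearest to the threshold were C3 (0.26 ± 0.0945, adjusted p = 0.0672) and Fga (-0.28 ± 0.114, adjusted p = 0.0972). After median-of-ratios rescaling C3 (0.32) and F13b (0.20) passed, after quantile normalization 2 members passed, C3 passed with the filter at 10 pseudocounts, and C3 passed without the 10 least alike mice (0.30). The generation label (G11L2 against G11L1) called 0 members, where 0.938% of all tested genes were called, and the log2 values of the members lay between -0.14 and 0.18.

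The third comparison concerned spread between mice. The residual SD is the SD of the log2 values over the 192 mice around the 4 group means and the generation label. Complement held the members with the widest spread. C6 led with 0.998, a value higher than in 94.4% of tested genes, followed by C8b (0.986), C9 (0.884), C8a (0.652), Hc (0.644) and Cfp (0.544). The smallest values belonged to F2 (0.176), Serpinc1 (0.207) and Proc (0.215), all of coagulation. Over all members of a class the medians were close, at 0.282 for complement, with those 6 genes included, and 0.259 for coagulation, against 0.325 for all tested genes and 0.234 for the 4601 tested genes whose mean signal was at least that of the lowest member. A spread above the median of all tested genes was found for 8 of 21 complement and 5 of 19 coagulation genes.

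**Figure D3:**
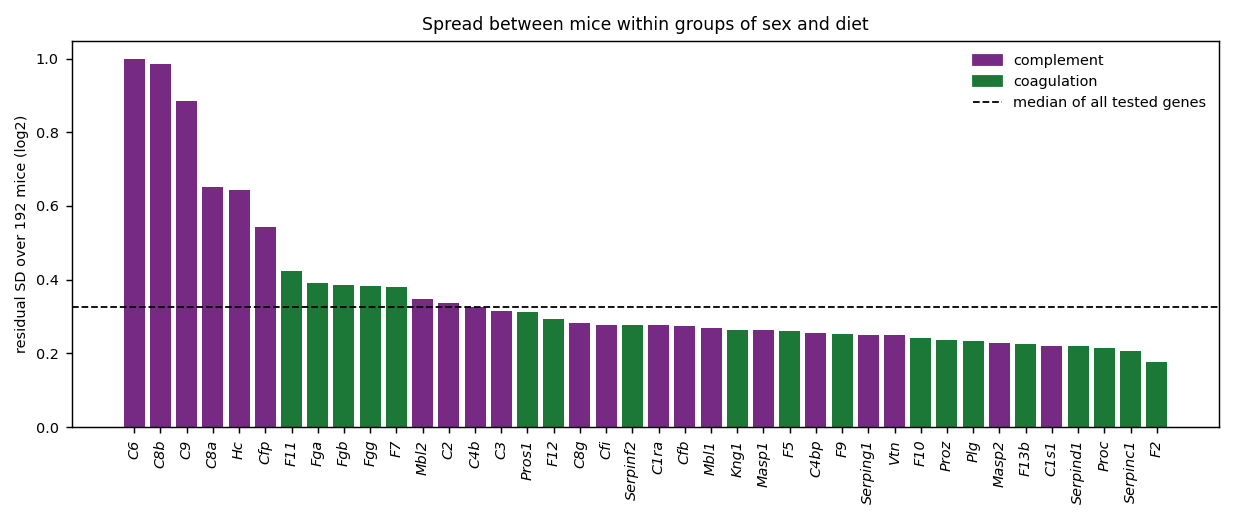
Residual SD in log2 over 192 mice for 40 genes, in falling order, with complement in purple and coagulation in green. The dashed line is the median of all tested genes (0.325), and the 6 widest members are complement genes.

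Across all mice C6 spanned 330-fold from lowest to highest, C9 261-fold, C8b 214-fold, C8a 43.8-fold, Hc 20.5-fold and Cfp 16.5-fold, while F2 spanned 2.89-fold. These spans include the sex difference. Within high fat males the 90th percentile of C6 was 7.0-fold above the 10th, and within chow males 4.5-fold. C6 values of chow females fell into 35 mice from 2.40 to 8.84 and 15 mice from 12.2 to 33.0, with none between, a split described after the values were seen. The widest such gap in high fat females was smaller, between 35 mice from 2.09 to 10.4 and 13 mice from 12.5 to 22.0 (0.27 in log2, against 0.47 in chow females). The highest C6 value, 691 in a high fat male, came from 1 of the 10 least alike mice, which ranked 2nd of 46 in its group for C8b and Hc and 3rd for C9. The highest C9 value, 622 in another high fat male, was also from 1 of the 10 least alike mice, and this mouse ranked 1st in its group for Fgb and Fgg.

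Genes whose residuals most resembled those of C6 were sought over all 192 mice. They were C8b (r = 0.52), Cyp7b1 (r = 0.51), which encodes an oxysterol hydroxylase, and Slc22a27 (r = -0.51), a gene of the organic ion transporter family. C8b is on another chromosome than C6. These correlations describe residuals that share libraries and scaling, and after median-of-ratios rescaling they were 0.52, 0.51 and -0.50.

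Spread was also compared between groups, on the distance of each value from the median of its group. On the high fat diet 9 members had a larger spread, where 1.86% of all tested genes did. The 4 with the smallest p were Plg (0.095 ± 0.0229, adjusted p = 0.00789), F11 (0.155 ± 0.0398, adjusted p = 0.0164), Serpinf2 (0.0975 ± 0.0253, adjusted p = 0.0169) and Vtn (0.0885 ± 0.0235, adjusted p = 0.021). C8b had the largest difference among the 9, at 0.31. After median-of-ratios rescaling only Plg and F11 were past the test. Between the sexes, C2 (0.145 ± 0.0302), Mbl2 (0.137 ± 0.0322) and Fgb (0.126 ± 0.0373) had a larger spread in males, where 4.27% of all tested genes did. C8a (-0.25 ± 0.0564, adjusted p = 0.000904) and C9 (-0.29 ± 0.0797, adjusted p = 0.0132) had a smaller spread in males, where 0.623% of all tested genes did. The log2 SD of C8a was 0.65 in high fat males, 0.30 in chow males, 0.73 in high fat females and 0.80 in chow females. That of C9 was 0.86, 0.51, 1.07 and 0.98 in the same groups, so the difference lay mainly in chow males. The larger spread of Fgb was 0.07 and no longer past the test without the 10 least alike mice. The levels of C8a and C9 were lower in females, and the part of level in their spread was not tested.

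Pairs of genes whose products act in 1 complex or pathway, or lie side by side in the genome, were compared over the 192 mice as residuals. Of 20 pairs, 15 were past an adjusted p of 0.05 by a permutation test, each with a positive r. A positive r was common among members of any kind. The median r was 0.46 for the 20 pairs. Over every pair of members it was 0.41 within coagulation, 0.27 within complement and 0.32 between the classes. The share of all member pairs past such a test was not computed, so the count is no result about partners or neighbours. The fibrinogen chains, whose 3 products form 1 protein and whose genes lie within 1 cluster on chromosome 3, were nearly inseparable: r was 0.98 for Fgb and Fgg (rho = 0.98), 0.98 for Fga and Fgg (rho = 0.97) and 0.96 for Fga and Fgb (rho = 0.96), each with an adjusted permutation p of 1.33e-05, from the smallest p that 100000 permutations can give. Without the 2 mice farthest out these values were 0.98, 0.98 and 0.96. Within the generation labels they lay between 0.95 and 0.99.

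The promoters of the fibrinogen genes are given as the second set.
Fga, chr3:83025903-83026202, plus strand: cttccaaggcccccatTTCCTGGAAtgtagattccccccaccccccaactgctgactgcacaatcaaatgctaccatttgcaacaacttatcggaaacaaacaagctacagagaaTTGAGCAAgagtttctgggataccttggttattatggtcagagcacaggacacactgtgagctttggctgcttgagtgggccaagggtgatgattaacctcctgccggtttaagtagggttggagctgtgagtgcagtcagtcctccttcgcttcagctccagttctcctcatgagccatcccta
Fgb, chr3:83049814-83050113, minus strand: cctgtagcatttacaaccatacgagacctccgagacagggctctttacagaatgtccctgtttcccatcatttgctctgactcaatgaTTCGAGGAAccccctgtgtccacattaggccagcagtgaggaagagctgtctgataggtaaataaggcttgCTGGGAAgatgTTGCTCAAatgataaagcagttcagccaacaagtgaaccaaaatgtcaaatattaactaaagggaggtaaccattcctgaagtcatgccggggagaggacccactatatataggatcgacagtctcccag
Fgg, chr3:83007474-83007773, plus strand: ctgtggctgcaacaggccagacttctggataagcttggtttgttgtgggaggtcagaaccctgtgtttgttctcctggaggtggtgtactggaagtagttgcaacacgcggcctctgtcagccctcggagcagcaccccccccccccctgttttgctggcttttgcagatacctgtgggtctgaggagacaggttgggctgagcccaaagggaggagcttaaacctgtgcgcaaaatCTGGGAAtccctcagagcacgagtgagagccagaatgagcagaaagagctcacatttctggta
Capitals again mark the patterns: the Fga promoter held 1 STAT and 1 C/EBP match, Fgb held 1 match of each of the 3 patterns, and Fgg held 1 CTGGGAA match.

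Prothrombin and antithrombin mRNA also went together, with r = 0.81 for Serpinc1 and F2 (rho = 0.77), genes of different chromosomes. Neighbouring genes on chromosome 8 were correlated as well, with r = 0.68 for F7 and F10 (rho = 0.61), which are 1.499 kb apart, and 0.66 for F7 and Proz (rho = 0.63). C1ra and C1s1 had r = 0.63 (rho = 0.60), though both share exon words with near copies. C3 went with Cfb (r = 0.50, rho = 0.50) and with Fga (r = 0.50, rho = 0.40). All of these had an adjusted permutation p of 1.33e-05, and their r kept its sign in G11L1 mice, in G11L2 mice and without the 2 mice farthest out.

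The chains of C8 did not form a trio. C8a and C8b, whose genes are 11.1 kb apart, had r = 0.62 (rho = 0.59, adjusted permutation p = 1.33e-05), with 0.57 in G11L1 mice, 0.67 in G11L2 mice and 0.60 without the 2 mice farthest out. For C8a and C8g r was 0.01 (rho = -0.02, adjusted permutation p = 0.897), and within groups it was 0.50 in high fat males, -0.34 in chow males, -0.10 in high fat females and -0.22 in chow females. C6 and C9 had r = 0.33 (rho = 0.34, adjusted permutation p = 1.33e-05) over all mice, 0.40 in G11L1 mice, 0.25 in G11L2 mice and 0.31 without the 2 mice farthest out. In high fat males their r was 0.67, in chow males 0.52, in high fat females 0.30 and in chow females -0.0058. The other pairs not past the test were Masp2 and Mbl2 (0.12), Mbl1 and Mbl2 (0.11), Masp1 and Mbl1 (0.02) and Proc and Pros1 (0.01). Over every pair of members, the median r was 0.41 within coagulation (171 pairs), 0.27 within complement (210 pairs) and 0.32 between the classes, a description over genes that share libraries and scaling, and 0.34, 0.25 and 0.25 after median-of-ratios rescaling.

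**Figure D4:**
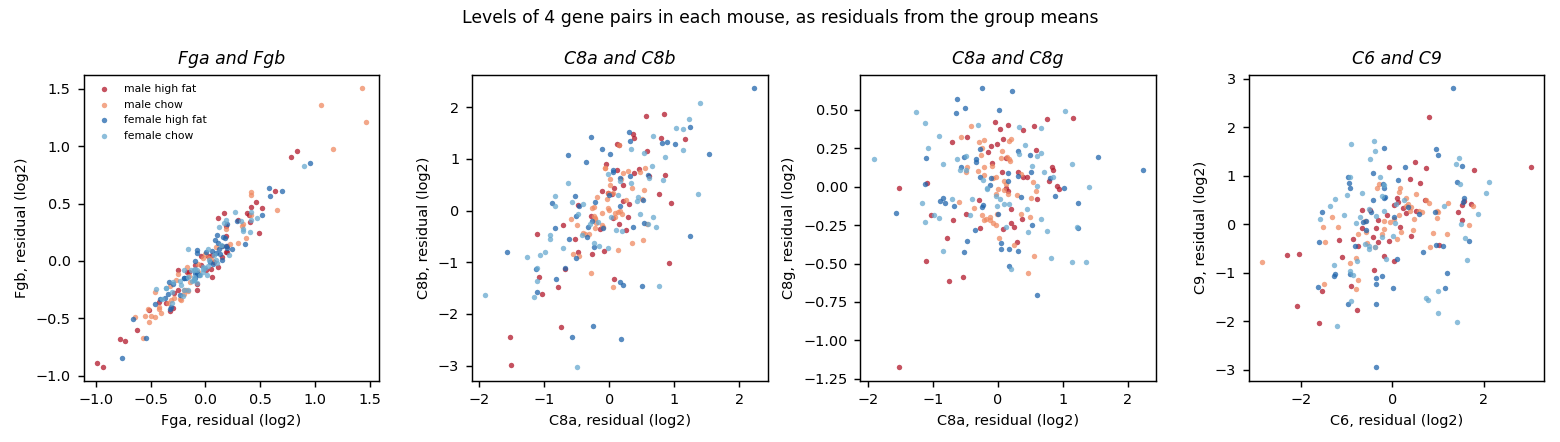
Residuals in log2 from the group means for 4 gene pairs, 1 point per mouse, coloured by sex and diet. Fga and Fgb lie along a narrow line (r = 0.96), C8a and C8b spread more (r = 0.62), C8a and C8g show no line (r = 0.01), and C6 and C9 lie between (r = 0.33).

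A last comparison set each member against an acute phase index, the mean log2 signal of Saa1, Saa2, Lcn2 and Orm2 in each mouse. The index ran from -0.14 to 7.29 in high fat males (median 3.10), -0.82 to 8.97 in chow males (median 1.31), 0.98 to 6.77 in high fat females (median 2.54) and 0.42 to 4.59 in chow females (median 1.95). The slope is the change in log2 of a gene per unit of index within groups, and limma fitted it for 14598 genes. Members with a positive slope numbered 18, where 6.19% of all tested genes had one, namely 13 of 21 complement and 5 of 19 coagulation genes. A negative slope was found for 4 members, where 15.9% of all tested genes had one. After median-of-ratios rescaling 20 members had a positive and 2 a negative slope. Over all tested genes 1476 were then positive and 1161 negative, where the deposited scaling gave 903 and 2321.

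All 5 convertase genes, all 4 complement regulators and all 3 fibrinogen chains rose with the index. C4b had the smallest p (0.126 ± 0.0118, adjusted p = 1.06e-17), then Pros1 (0.0942 ± 0.0125, adjusted p = 1.09e-09), C4bp (0.0739 ± 0.0104, adjusted p = 7.62e-09) and Fgb (0.107 ± 0.0159, adjusted p = 5.24e-08). The largest slope was that of C9, at 0.17, and Hc (0.11) and C8a (0.10) passed as well, while C6, C8b and C8g did not. Proc (-0.0329 ± 0.0096), F13b (-0.0343 ± 0.01), Mbl2 (-0.0466 ± 0.0155) and Serpinc1 (-0.0279 ± 0.0095) fell with it, and the slopes of Mbl2 and Serpinc1 were not past the test after median-of-ratios rescaling, nor was that of F13b without the 10 least alike mice.

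As correlations, 8 were computed. C4b reached r = 0.62 (rho = 0.57) and 0.58 without the 2 mice farthest in the index. For Pros1 r was 0.48 (rho = 0.39) and 0.41 without them, for C4bp 0.46 (rho = 0.47) and 0.44, and for Fgb 0.45 (rho = 0.25) and 0.34, so the relation of Fgb leaned more on those mice. Adjusted permutation p for r was 2e-05 for these 4, from the smallest p the permutations can give. The negative correlations were weaker, at r = -0.24 (rho = -0.28) for Proc, -0.24 (rho = -0.27) for F13b, -0.21 (rho = -0.22) for Mbl2 and -0.21 (rho = -0.25) for Serpinc1, with adjusted permutation p of 0.00117, 0.00117, 0.00303 and 0.00303. Within the generation labels F13b had 0.0053 in G11L1 mice and -0.37 in G11L2 mice, so its relation did not hold in G11L1, while the other 7 kept their sign in both. Neutrophil markers moved with the index too, and all 4 tested had a positive slope, with summed medians of 1.09 in high fat males, 0.722 in chow males, 1.34 in high fat females and 0.941 in chow females, and Ly6g at a median of 0. Of the 8 Kupffer cell and macrophage markers 5 rose with the index, as did 3 of 4 markers of lipid-associated macrophages. Their part in the slopes was not tested.

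**Figure D5:**
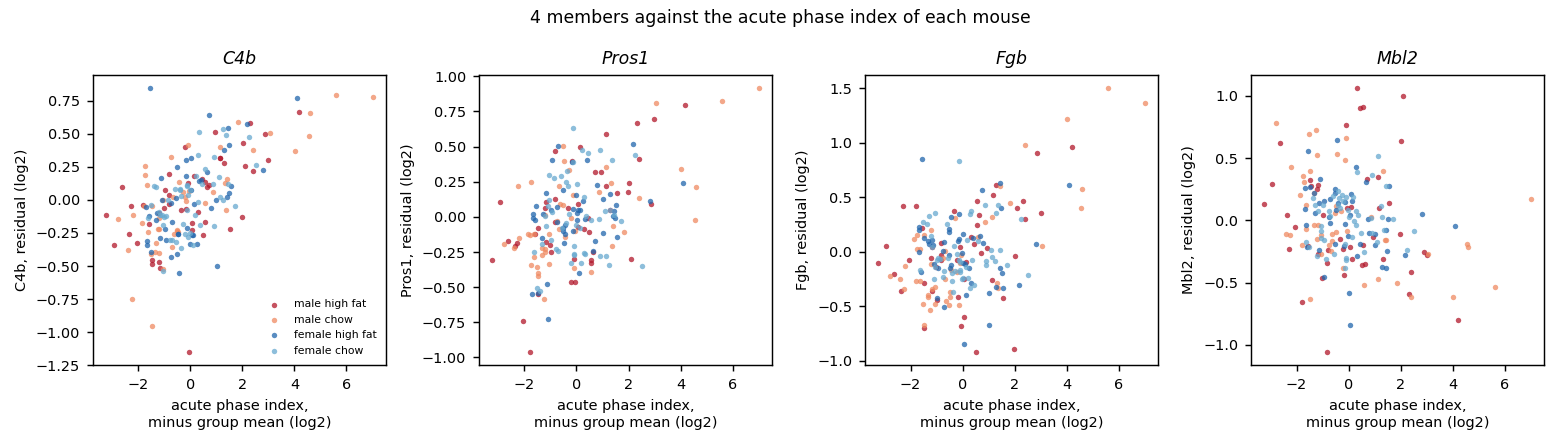
Residuals in log2 of C4b, Pros1, Fgb and Mbl2 against the acute phase index of each mouse, taken from its group mean, for 192 mice by sex and diet. C4b climbs along the whole range, r for Fgb is 0.45 over all mice and 0.34 without the 2 farthest, and Mbl2 declines weakly (r = -0.21).

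Genes of the same pathways outside the members were taken from a list. Of 17 tested complement genes, 5 were higher and 10 lower in males, and 6 were higher and 5 lower on high fat, where 45.0% and 23.5% of all tested genes were higher and lower in males and 15.0% and 41.9% on high fat. After median-of-ratios rescaling the counts were 5 and 10 for sex, and 7 and 4 for diet. The C1q genes C1qa, C1qb and C1qc, known from macrophages, were lower in males at -0.48, -0.47 and -0.49. The listed Kupffer cell and macrophage markers were lower in males too. On high fat the C1q genes were higher, at 0.18, 0.23 and 0.17. C7, which joins the complex between C6 and C8, was higher in males by 0.28, against the 3.66 of C6.

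Among 16 tested coagulation genes outside the members, 4 were higher and 4 lower in males, and 7 were higher and 4 lower on high fat. Of all tested genes, 45.0% were higher and 23.5% lower in males, and 15.0% higher and 41.9% lower on high fat. After median-of-ratios rescaling 1 was higher and 6 lower in males, and 9 were higher and 4 lower on high fat. Those higher on high fat included Plat (0.42) and Plau (0.51), the genes of the plasminogen activators, and Vwf (0.32), the gene of von Willebrand factor, known from endothelium. Hepatocyte-made Serpina10 (-0.22), Cpb2 (-0.24), Hrg (-0.25) and Habp2 (-0.18) were lower, as the members were. The 3 vitamin K cycle genes Ggcx (-0.22), Vkorc1 (-0.28) and Vkorc1l1 (-0.09) were lower on high fat, the last at -0.01 after median-of-ratios rescaling. Of 14 regulators of hepatocyte genes, 10 were lower on high fat and 1 was higher, with Hnf4a at -0.31 and Stat3 at -0.27, and 8 were higher and 1 lower in males, with Esr1 at -1.20. After median-of-ratios rescaling 5 were lower and 1 higher on high fat, and 5 higher and 2 lower in males.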

How the data were processed

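Liver mRNA of 192 mice was sequenced as 2 technical repeats per mouse. The authors deposited a table of 21454 genes with a single column per mouse, whose values are a signal normalized to the upper quartile, per the name the authors gave the deposited table. CASAVA 1.8.0 is listed in the submitters' processing notes, as are mm10 and GRCm38 for the genome. Aligner, annotation and counting tool are not given in the sources used here. Low values were within 0.1 of a whole read in only 78.4% to 82.5% of cases per mouse, so no count test was run, and depth is an estimate from them.

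Genes above 0 in at least 46 mice with a mean of at least the pseudocount of 0.0629 (3.99 reads of the median mouse) were tested as log2(value + 0.0629), 14602 in all. Folds are on that scale and understate changes of low genes. limma 3.58.1 (R 4.3.3) fitted 4 group means and the generation label with a mean-variance trend. Adjusted p-values are Benjamini-Hochberg over all tested genes, called under 0.05. Spread and index slopes were fitted likewise. Ensembl IDs were named and placed by GENCODE M21 on GRCm38. Gene pairs were tested on residuals by 100000 two-sided permutations in numpy 2.4.6. The members, lists and tests were chosen with earlier results of these data known. Named for sex and diet are the up to 6 called genes per class and direction with the smallest p, otherwise up to 4 per direction, the 6 widest and 3 narrowest genes and the 3 genes most like the widest. Further members were named after their values were seen. Alternatives were other pseudocounts, filters, scalings, rank scores, no generation term, each generation alone, robust moderation and the mouse number as a replicate block. Fits without mice that stood apart were added after seeing the data. The fits were tested on simulated data and recovered most of the changes put in. Some results for other genes of these pathways are not reported here.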

Additional observations from a re-analysis of the deposited data

How the results depend on the processing

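Of the counts of members, 159 stayed within 1.5 times of the reported count under an alternative and 17 did not. Quantile normalization gave 5 complement genes lower in males (reported 3), 3 coagulation genes higher (9) and 11 lower (4), and for diet 3 complement genes higher (0), 8 lower (16) and 11 coagulation genes lower (19), and 2 interaction calls (0), the last added after seeing the data. It turned the sex differences of Fgg, Fga and Fgb to -0.0543, -0.16 and -0.16. Median-of-ratios rescaling gave 2 complement genes higher on high fat (0), 2 interaction calls (0), 2 genes of larger spread on high fat (9), 6 of larger spread in males (3) and 2 negative index slopes (4). The 10 times larger pseudocount also gave 6 genes of larger spread in males. The filter at 10 pseudocounts and leaving out the 10 least alike mice each gave 1 interaction call. G11L2 mice alone gave 2 coagulation genes lower in males, and G11L1 mice alone gave 10 complement genes lower on high fat. Pairs near 0 turned in sign: C8a and C8g to -0.0552 (rescaled) and -0.0424 (without the 10 least alike mice), Masp1 and Mbl1 to -0.0764 and -0.0074, and Proc and Pros1 to -0.0261 (rescaled) and -0.0013 (without the 2 farthest mice). The cause was not tested. Of the values for the genes named by rule and the pairs, which leave out other members whose turns the report names, 633 kept direction and call, 10 were weaker and 9 turned.

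Males and females share 92 mouse numbers, but residuals of same-numbered mice had a median correlation of 0.0031, 9 of 92 were above 0.1 and 3 females were most like their own number, so the numbers were not taken as pairs. With the number as a replicate block (correlation 0.02) the counts were 14 and 3 complement and 9 and 4 coagulation genes higher and lower in males, 16 complement and 19 coagulation genes lower on high fat, 0 for interaction and generation, 9 for diet spread, 3 and 2 for sex spread and 18 and 4 for index slopes, as without it.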
